A study of Mus musculus with 30 samples.

Results

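The genes described here are 9 neutrophil chemoattractants and receptors, chosen by symbol: the chemokines *Cxcl1*, *Cxcl2*, *Cxcl3*, *Cxcl5* and *Cxcl12*, the chemokine receptors *Cxcr2* and *Cxcr4*, and the formyl peptide receptors *Fpr1* and *Fpr2*. All 9 members were among the 17059 genes of the adipose tissue macrophage (ATM) table, and 8 were among the 13353 genes of the bone marrow (BM) table. *Cxcl5* in BM was not analysed here. RNA sequencing (RNA-Seq) was done on whole BM cells and on macrophages of visceral fat, which the study sorted as F4/80+ cells, with 3 libraries in each of 5 groups per tissue. The labels give 3 mice per group without tying a library to an animal, so p-values measure the spread between these libraries. As the labels describe them, recipients were C57BL/6 mice that had been lethally irradiated and given CD45.2+ BM cells of *Shp2E76K/+*;LysM-Cre+ donors in equal number with CD45.1+ Boy/J competitor cells, so the libraries hold a mixture of mutant, competitor and residual host cells. LysM-Cre acts in myeloid cells, and the Shp2E76K allele is an activating mutation of a tyrosine phosphatase. WT recipients were lean and received no drug. Leptin-deficient *Ob/Ob* recipients received vehicle (Vehicle), the GLP-1R agonist beinaglutide at 3 mg/kg, an anti–IL-17A antibody at 200 µg per mouse 3 times per week, or both (Combo), for 30 days from 8 weeks after transplantation. The labels give ages of 12 to 14 weeks and both sexes. They do not name the donor library by library, and the study's text also names WT donor cells for an ATM comparison group, so for the WT libraries of ATMs a difference in donor cannot be told apart from the difference in recipient.

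*Cxcl1*, *Cxcl2*, *Cxcl3* and *Cxcl5* are ELR+ CXC chemokines, named for the glutamate-leucine-arginine motif before their first cysteines. They attract neutrophils through CXCR2, and IL-17A and TNF are known to raise them in stromal cells, endothelium and macrophages through NF-κB and by slowing decay of their mRNAs. CXCL12, made in BM mainly by reticular stromal cells, holds neutrophils and stem cells in the marrow through CXCR4, and CXCR2 signaling opposes that retention. FPR1 and FPR2 detect formylated peptides of bacteria and mitochondria, and neutrophils carry both at high levels.

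The genes of the 4 ELR+ chemokines lie within chr5:90759360-90905938 (GRCm38, plus strand, GENCODE). Promoter stretches of *Cxcl1*, *Cxcl2* and *Cxcl3* are shown because these 3 genes were higher in Vehicle than in WT in both tissues and because these windows share a run of letters that holds an NF-κB motif. Each stretch runs from base 150 to base 31 before the RefSeq start, on the plus strand of GRCm38.p6, and capitals mark GGGAATTTCCC, the longest run of letters that the 3 windows share. The windows are chr5:90891095-90891214 for *Cxcl1*, chr5:90903749-90903868 for *Cxcl2* and chr5:90785951-90786070 for *Cxcl3*.
Cxcl1: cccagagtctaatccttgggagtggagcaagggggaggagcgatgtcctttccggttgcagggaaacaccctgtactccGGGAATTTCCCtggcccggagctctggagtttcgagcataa
Cxcl2: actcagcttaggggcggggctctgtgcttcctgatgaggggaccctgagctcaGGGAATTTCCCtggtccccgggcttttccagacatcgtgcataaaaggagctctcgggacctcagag
Cxcl3: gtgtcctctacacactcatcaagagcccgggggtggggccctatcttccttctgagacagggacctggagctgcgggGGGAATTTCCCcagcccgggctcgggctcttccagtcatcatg
The shared run stood at bases 71 to 61 before the start in *Cxcl1*, 97 to 87 in *Cxcl2* and 73 to 63 in *Cxcl3*. Searched on both strands of the 250 bases upstream of the start, it was found in 14 of 32851 mouse promoters (0.0426%), and its first 10 letters, GGGAATTTCC, a known form of the NF-κB site, in 28 (0.0852%). The looser motif GGGNNNTTCC, which overlaps the others, was found in 4.65% of these promoters and, of the 8 members with a promoter in the table, in *Cxcl1*, *Cxcl2* and *Cxcl3*. These motifs were taken from the run that *Cxcl1*, *Cxcl2* and *Cxcl3* share. Matches in these 3 genes were therefore fixed in advance and are counted among those above. A match of letters is a description of the sequence and was not tested against the expression values.

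Total counts on genes ranged from 31086184 to 39925495 per library in BM and from 24876074 to 45300263 in ATMs. Replicate libraries varied far less in BM (3.51% by edgeR's biological coefficient of variation) than in ATMs (32.5%), so smaller differences passed the test in BM. Accordingly, replicates of 2 groups did not overlap for 61% to 76% of the genes of BM and 43.4% to 62.9% of those of ATMs, by the pair of groups compared. Because no library is tied to an animal, whether this spread is that between mice cannot be told. In BM, WT replicate 1 stood apart from the other WT libraries, with a chi-square per degree of freedom over genes of 34.8 and 26.6 against 2.02 to 4.21 for the other pairs of replicates. In ATMs, markers of other cells accompanied those of macrophages: summed CPM (counts scaled to library depth) of 14 monocyte and macrophage markers were 3888 to 5126 in WT and Vehicle and 11445 to 16679 in the other groups, those of 12 stromal markers were 5966 to 21157, epididymal markers reached 3657 to 3798 in WT and at most 225 elsewhere, and pancreatic acinar markers reached 1027 to 1037 in Combo and at most 27.0 elsewhere. *Xist*, from the inactive X chromosome of females, stood at 998 to 1533 normalized counts in Vehicle, 1041 to 1264 in Combo and 40.6 or fewer in the other groups of ATMs, and likewise at 3528 to 6712 in Vehicle and Combo against 113 or fewer elsewhere in BM. In BM, *Ddx3y*, from the Y chromosome of males, stood at 695 to 743 in Vehicle, 147 to 177 in Combo and 1460 to 2015 in the other groups. Sex of the cells therefore moved with Vehicle and Combo, which in BM also differed from each other, and its part in the values below cannot be told apart from the groups. In these bulk samples, fewer cells of a type and less RNA per cell cannot be told apart.

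The ELR+ chemokines were higher in ATMs of Vehicle mice than in those of WT mice. Counts were normalized to the effective library size, and genes were called by edgeR's quasi-likelihood test when the Benjamini-Hochberg adjusted p lay below 0.05 and the log2 fold change exceeded 1 in size. Of the 9 members, 7 were called between Vehicle and WT, all 7 higher, where 35.4% of all genes tested were called, 12.5% higher and 22.9% lower. The members' median log2 fold change was 3.88, against -0.21 over all genes. Markers of other cells moved between the same groups. The summed level of 10 endothelial markers was 7824 to 8228 CPM in Vehicle and 1962 to 2242 in the other groups, and that of 13 neutrophil markers was 26533 to 28140 in Vehicle and 567 to 581 in WT, and their part in the chemokine values was not tested.

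*Cxcl5* had the largest difference of the 4 in ATMs. Its 3 WT libraries held 7, 40 and 0 counts, and its normalized counts in Vehicle were 8882, 9438 and 10456. The log2 fold change was 9.11 (SE 0.42, adjusted p = 3.76e-11). Its size, though not the call, depended on WT replicate 2, without which it was 11.2. *Cxcl5* fell after each treatment, to 786 to 1003 normalized counts with the GLP-1R agonist, 133 to 166 with the anti–IL-17A antibody and 1997 to 2501 in Combo, and no group overlapped another. The antibody alone gave the lowest treated level and Combo the highest, with a log2 fold change of 3.95 (SE 0.31, adjusted p = 9.37e-08) between Combo and antibody. Between Combo and the GLP-1R agonist it was 1.34 (SE 0.27, adjusted p = 0.000971), a call lost in DESeq2 (adjusted p = 0.0963).

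*Cxcl3* followed the same order of groups in ATMs, apart from Combo and GLP-1R agonist, which overlapped. Normalized counts were 183, 149 and 194 in WT and 2429, 2602 and 2709 in Vehicle, a log2 fold change of 3.88 (SE 0.15, adjusted p = 4.27e-12). They were 702 to 731 with the GLP-1R agonist, 165 to 191 with the antibody and 634 to 840 in Combo. The antibody group overlapped WT, with a log2 difference of 0.05 and a 95% interval of -0.24 to 0.33.

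*Cxcl1* separated the 2 single agents in ATMs. It stood at 15582 to 16693 normalized counts in WT, 55996 to 62727 in Vehicle and 50286 to 55017 with the GLP-1R agonist. The difference between the GLP-1R agonist and Vehicle was -0.16 on the log2 scale (SE 0.06, adjusted p = 0.0238), without overlap but within the fold-change limit and not called. With the antibody *Cxcl1* fell to 13983 to 15333 and in Combo to 6531 to 7434, the lowest of the groups and 1.21 log2 units below WT (SE 0.06, adjusted p = 1.04e-10). Combo was also below the antibody alone by a log2 fold change of -1.07 (SE 0.06, adjusted p = 1.05e-09).

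*Cxcl2* had the narrowest range of group means among the 4 ELR+ chemokines of ATMs (4.03-fold from lowest to highest). It rose from 6568 to 7089 normalized counts in WT to 26387 to 28613 in Vehicle, a log2 fold change of 2.01 (SE 0.06, adjusted p = 9.14e-14). Against Vehicle, the log2 fold change was -0.86 with the GLP-1R agonist (14172 to 16219), -1.36 with the antibody (10353 to 10911) and -0.93 in Combo (13508 to 14959), and the antibody's passed the fold-change limit. All 3 treated groups stayed above WT without overlap, and Combo was 1.08 log2 units higher than WT (SE 0.06, adjusted p = 3.56e-10).

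**Figure D1:**
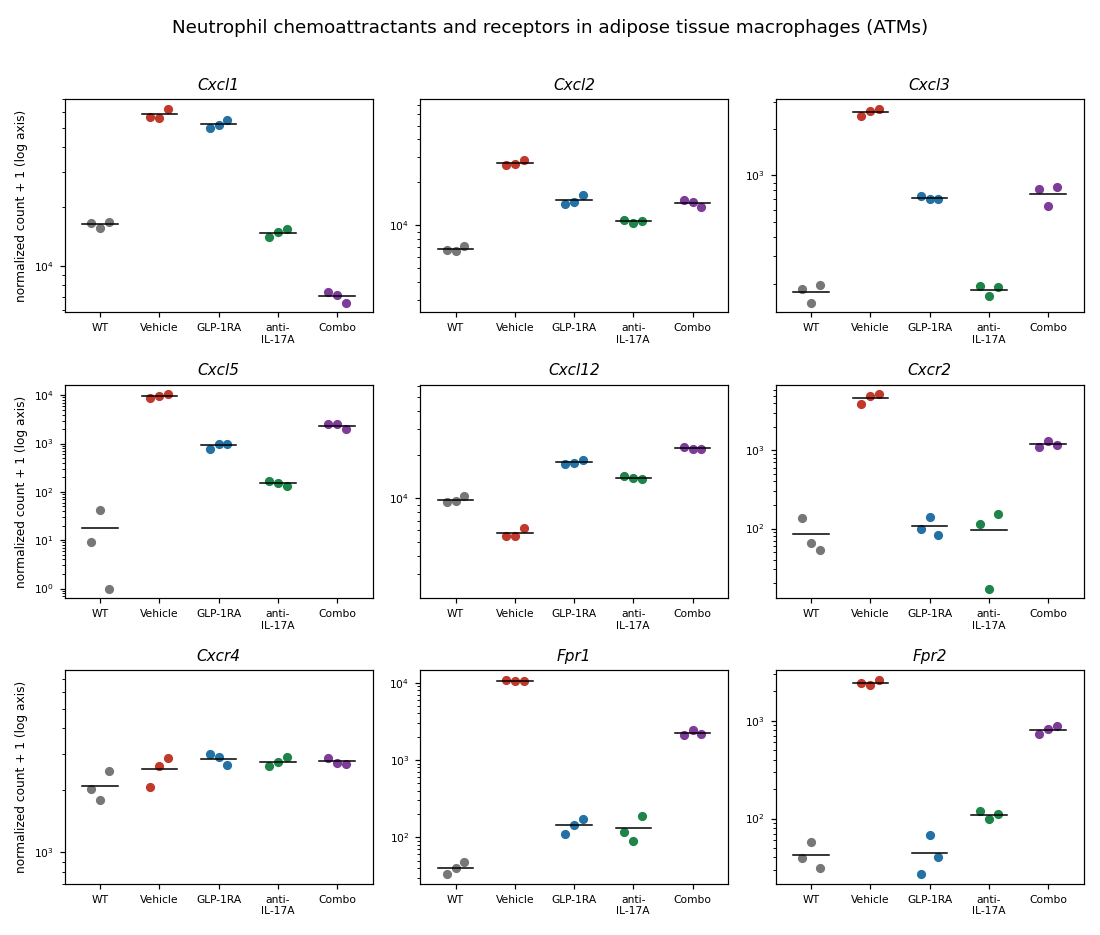
Normalized counts plus 1 (log axis) of the 9 members in ATMs, with each point 1 library, each line the group mean and 3 libraries in each of 5 groups. Vehicle is the highest group for *Cxcl1*, *Cxcl2*, *Cxcl3*, *Cxcl5*, *Cxcr2*, *Fpr1* and *Fpr2* and the lowest for *Cxcl12*, and the groups of *Cxcr4* lie between 1794 and 2987.

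In BM, the ELR+ chemokines that were measured were also higher in Vehicle than in WT, from far lower levels. Of the 8 members, 4 were called between Vehicle and WT, 3 higher and 1 lower, where 19.5% of all genes tested were called, 9.44% higher and 10% lower. *Cxcl3* was nearly absent from WT BM, with 5, 3 and 1 counts in the 3 libraries, and held 578, 562 and 543 counts in Vehicle. Its log2 fold change was 7.71 (SE 0.26, adjusted p = 8.29e-27). Every treated library fell back to 3 to 19 counts.

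*Cxcl2*, the most abundant ELR+ chemokine of the BM, stood at 476 to 494 normalized counts in WT and 3270 to 3308 in Vehicle, a log2 fold change of 2.76 (SE 0.05, adjusted p = 5.06e-36). It fell in each treated group, to 550 to 599 with the GLP-1R agonist, 1529 to 1625 with the antibody and 931 to 1032 in Combo. These groups did not overlap, and the antibody gave the highest treated level, whereas in ATMs it gave the lowest. GLP-1R agonist and antibody differed by -1.47 log2 units in BM (SE 0.05, adjusted p = 2.05e-25) and by 0.50 in ATMs (SE 0.06, not called), and the difference between these effects was not tested.

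*Cxcl1* was rare in BM. Its libraries held 4, 4 and 0 counts in WT, 15, 42 and 38 in Vehicle, 0, 2 and 0 in both single-agent groups and 0 in the 3 Combo libraries. Vehicle was above WT by a log2 fold change of 3.74 (SE 0.60, adjusted p = 8.17e-07). *Cxcl1* was at least 11.5-fold lower in Combo than in Vehicle, taking 3 counts per library as the upper limit that a count of 0 allows. With the GLP-1R agonist the 2 counts in all gave a Vehicle to GLP-1R agonist ratio of 57.2, with a counting interval of 15.4 to 479. The intervals and floors cover counting error only.

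Between Combo and WT, the calls of the rarest chemokines of the BM depended on single libraries. Of the 8 members, 4 were called between Combo and WT, 2 higher and 2 lower, where 14.3% of all genes tested were called, 4.4% higher and 9.93% lower. *Cxcl2* was 1.03 log2 units higher (SE 0.06, adjusted p = 8.99e-20) and *Cxcl12* lower, as given below. *Cxcl3* (3, 9 and 11 counts in Combo, adjusted p = 0.0325) and *Cxcl1* (no counts in Combo, adjusted p = 0.0344) were also called. The *Cxcl3* call was lost without WT replicate 2 (adjusted p = 0.0567), WT replicate 3 (0.119), Combo replicate 2 (0.0948) or Combo replicate 3 (0.17). The *Cxcl1* call was lost without WT replicate 1 (0.0586), WT replicate 2 (0.0856) or any Combo library (0.0735 to 0.0745), and these levels were at or near the floor. The GLP-1R agonist left no member called against WT in BM by edgeR, where 14.7% of genes were called, 6.1% higher and 8.62% lower. DESeq2 called 0 as well, and 5 of the 8 members had an unadjusted p below 0.05.

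*Cxcl12*, the retention chemokine, moved opposite to the ELR+ chemokines in BM. Normalized counts were 2827, 2760 and 2750 in WT and 824, 788 and 875 in Vehicle, a log2 fold change of -1.75 (SE 0.05, adjusted p = 1.07e-30). It rose with the GLP-1R agonist to 3911 to 4164, above WT, and with the antibody to 2484 to 2672, just below WT. In Combo it stayed at 1078 to 1183, 0.44 log2 units above Vehicle (SE 0.05), which did not pass the fold-change limit. Combo was lower than the GLP-1R agonist by a log2 fold change of -1.85 (SE 0.04, adjusted p = 3e-32), lower than the antibody by -1.19 (SE 0.04, adjusted p = 1.24e-24) and lower than WT by -1.31 (SE 0.04, adjusted p = 6.56e-27). The summed level of 12 stromal markers in BM, a list that does not hold *Cxcl12*, was 221 to 226 CPM in WT, 177 to 189 in Vehicle, 278 to 281 with the GLP-1R agonist, 231 to 236 with the antibody and 158 to 165 in Combo, with none of them at 0 in any group. These markers and *Cxcl12* were both highest with the GLP-1R agonist and both lower in Vehicle and Combo than in the other groups. They differed in that the markers were lower in Combo than in Vehicle, whereas *Cxcl12* was higher. The markers were also higher with the antibody than in WT, whereas *Cxcl12* was lower. Summed CPM of 8 fibroblast and preadipocyte markers, in part the same genes, followed another order in BM. They were 221 to 227 in WT, 154 to 156 in Vehicle and 176 to 182 with the GLP-1R agonist. With the antibody they were 302 to 303, and in Combo 308 to 311. The part of stromal cells in the *Cxcl12* result was not tested.

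In ATMs the Combo group had the highest *Cxcl12*. Normalized counts were 9465 to 10315 in WT, 5475 to 6250 in Vehicle, 17230 to 18459 with the GLP-1R agonist, 13571 to 14378 with the antibody and 21802 to 22781 in Combo, without overlap. Vehicle lay 0.77 log2 units below WT (SE 0.05), within the fold-change limit. *Cxcl12* rose against Vehicle in each treated group, with log2 fold changes of 1.63, 1.28 and 1.95 (SE 0.05 to 0.06, adjusted p from 1.13e-13 to 1.25e-11), and was higher in Combo than in WT by 1.18 (SE 0.05, adjusted p = 7.25e-11). Stromal markers summed to 13711 to 14474 CPM in WT, 5966 to 6265 in Vehicle, 20742 to 21157 with the GLP-1R agonist, 12969 to 13189 with the antibody and 11574 to 11785 in Combo. They were lowest in Vehicle, as *Cxcl12* was, while in Combo they stood below WT where *Cxcl12* stood above it. Summed CPM of 7 T cell markers were 253 to 273 in WT, 103 to 120 in Vehicle and 396 to 409 with the GLP-1R agonist. With the antibody they were 511 to 528, and in Combo 887 to 898. T cell markers were thus lowest in Vehicle and highest in Combo, as *Cxcl12* was, but the order of the single agents was reversed. The part of these cells in the *Cxcl12* values was not tested.

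**Figure D2:**
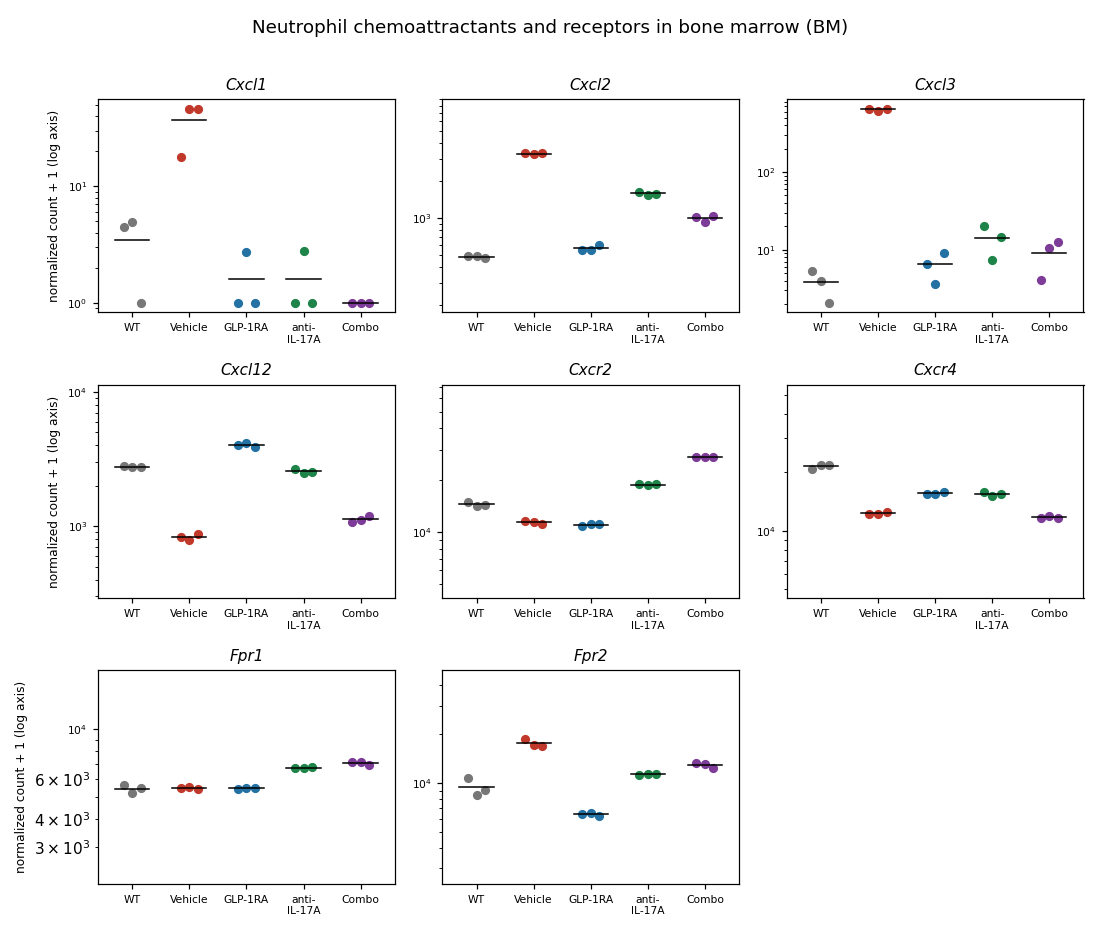
Normalized counts plus 1 (log axis) of the 8 members measured in BM, with each point 1 library, each line the group mean and 3 libraries in each of 5 groups. *Cxcl1*, *Cxcl2* and *Cxcl3* peak in Vehicle, *Cxcl12* is lowest in Vehicle and Combo, and *Cxcr2* is highest in Combo at 27205 to 27426.

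*Cxcr2*, the receptor for the ELR+ chemokines, was nearly absent from WT ATMs and abundant in Vehicle. Normalized counts were 136, 65.2 and 52.3 in WT and 3889, 5024 and 5215 in Vehicle, a log2 fold change of 5.81 (SE 0.54, adjusted p = 1.83e-07). With the GLP-1R agonist it was 97.5, 140 and 81.2, and with the antibody 114, 16.1 and 153, both overlapping WT. Combo lay between, at 1112, 1333 and 1186, below Vehicle by a log2 fold change of -1.96 (SE 0.44, adjusted p = 0.00154) and above WT by 3.85 (SE 0.50, adjusted p = 1.54e-05).

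*Fpr1*, the high-affinity formyl peptide receptor, showed the largest receptor difference in ATMs. It rose from 32.2, 38.9 and 46.9 normalized counts in WT to 10796, 10615 and 10381 in Vehicle, a log2 fold change of 8.06 (SE 0.26, adjusted p = 3.46e-13). It fell to 109 to 171 with the GLP-1R agonist and 88 to 186 with the antibody, and stood at 2133 to 2464 in Combo. Both single-agent groups stayed above WT, by log2 fold changes of 1.84 (SE 0.27, adjusted p = 5.32e-05) and 1.71 (SE 0.26, adjusted p = 8.66e-05).

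*Fpr2*, its relative, which binds formyl peptides and lipid ligands and shares 3.7% of its exonic bases with *Fpr3*, took the same course. It was at 30.5 to 56.8 normalized counts in WT, 2310 to 2600 in Vehicle, 25.9 to 66.4 with the GLP-1R agonist, 97.2 to 119 with the antibody and 732 to 888 in Combo. Vehicle was above WT by a log2 fold change of 5.86 (SE 0.29, adjusted p = 8.61e-11). The antibody group was above WT by 1.37 (SE 0.27, adjusted p = 0.000787), while the GLP-1R agonist group overlapped WT, with a 95% interval of the log2 difference from -0.54 to 0.60.

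In the sorted ATMs, the 3 receptors and markers of neutrophils were both highest in Vehicle and Combo. The summed level of the 13 neutrophil markers in the table, none of them at 0 in any group, was 567 to 581 CPM in WT, 26533 to 28140 in Vehicle, 349 to 374 with the GLP-1R agonist, 592 to 607 with the antibody and 14373 to 14691 in Combo. Vehicle and Combo held by far the highest marker levels and the highest *Cxcr2*, *Fpr1* and *Fpr2*, and the part of these cells in the receptor values was not tested. In the other groups the markers and receptors did not run in parallel. With the GLP-1R agonist the marker sum was below WT, while *Fpr1* was called above WT. With the antibody the sum stood close to WT, while *Fpr1* and *Fpr2* were called above WT. None of the 9 members is among these markers. The summed level of immature granulocyte markers followed another order in ATMs, at 1597 to 1643 CPM in WT, 751 to 814 in Vehicle, 1201 to 1238 with the GLP-1R agonist, 504 to 519 with the antibody and 869 to 888 in Combo. This sum does not stand for each marker on its list. *Elane*, which is on it, was higher in Vehicle than in WT, as given below.

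**Figure D3:**
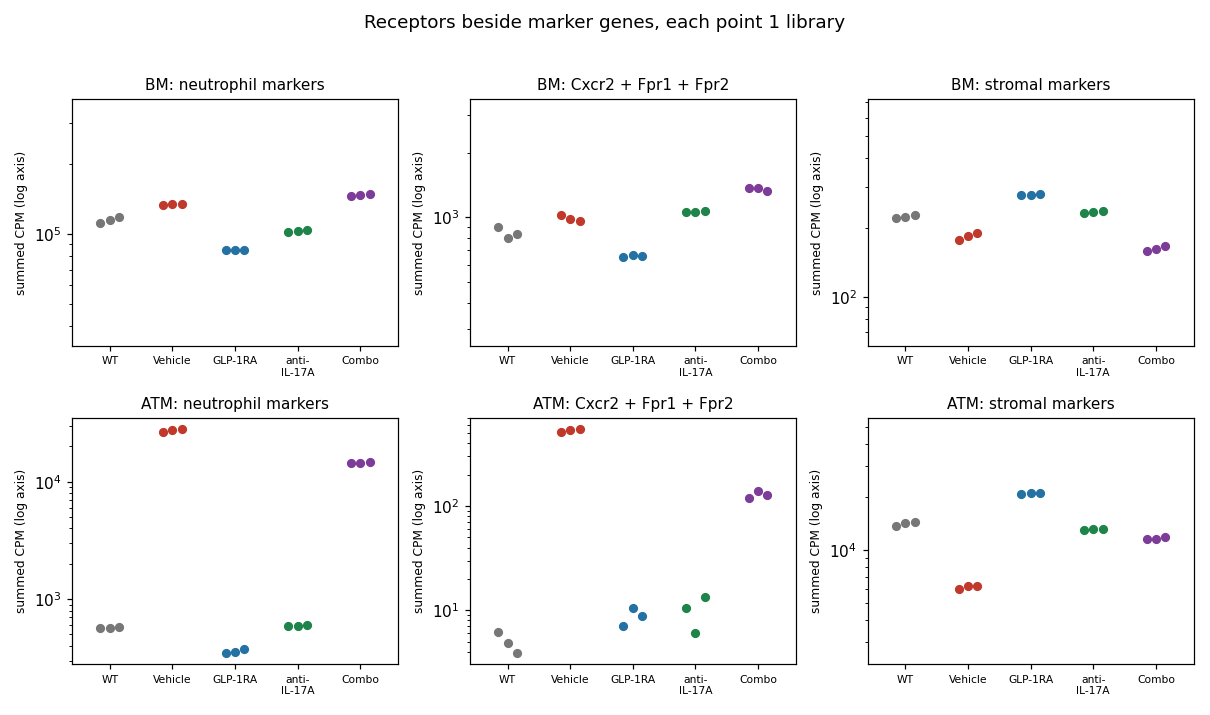
Summed CPM (log axis) of neutrophil markers, of *Cxcr2*, *Fpr1* and *Fpr2* together and of stromal markers in BM (top row) and ATMs (bottom row), with each point 1 of 3 libraries per group. In ATMs, neutrophil markers reach 26533 to 28140 in Vehicle and 14373 to 14691 in Combo and stay at 607 or below in the other groups, and the receptors show the same 2 raised groups.

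In BM, where neutrophils are a main cell type, the same receptors differed far less, and Combo rather than Vehicle was the highest group for *Cxcr2*. *Cxcr2* stood at 14127 to 15026 normalized counts in WT, 11081 to 11561 in Vehicle, 10809 to 11207 with the GLP-1R agonist, 18748 to 19010 with the antibody and 27205 to 27426 in Combo. The Combo group was above Vehicle by a log2 fold change of 1.26 (SE 0.02, adjusted p = 2.36e-35) and above the GLP-1R agonist by 1.31 (SE 0.02, adjusted p = 3.06e-35). Neutrophil markers summed to 110900 to 117960 CPM in WT, 133050 to 134380 in Vehicle, 84771 to 85546 with the GLP-1R agonist, 102080 to 103580 with the antibody and 146270 to 147820 in Combo. This sum was highest in Combo, as *Cxcr2* was, but lower with the antibody than in Vehicle, whereas *Cxcr2* was higher with the antibody than in Vehicle. The sum was also higher in Vehicle than in WT, whereas *Cxcr2* was lower in Vehicle. Single markers did not all follow the sum: *Mmp9*, which is on the list, was higher with the antibody than in Vehicle, as *Cxcr2* was. *Csf3r*, also on the list, was lower in Vehicle than in WT (log2 fold change -1.65), as *Cxcr2* was. The part of neutrophils in the *Cxcr2* values was not tested. Immature granulocyte markers were also highest in Combo (11577 to 11764 CPM, against 4913 to 7931 elsewhere).

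*Fpr2* had the larger differences of the formyl peptide receptors in BM. It stood at 8513 to 10829 normalized counts in WT, 16950 to 18735 in Vehicle, 6316 to 6545 with the GLP-1R agonist, 11309 to 11411 with the antibody and 12315 to 13235 in Combo. The fall with the GLP-1R agonist against Vehicle was called, at -1.45 log2 units (SE 0.08, adjusted p = 8.13e-09), and the increase of Vehicle over WT, 0.89 (SE 0.07), lay within the fold-change limit. *Fpr1* kept to 5212 to 7182 normalized counts over all BM libraries and was called in no comparison of 2 groups. Its Vehicle and WT levels differed by 0.01 log2 units, with a 95% interval of -0.05 to 0.06. It stood above Vehicle by 0.30 log2 units with the antibody (SE 0.03, adjusted p = 1.72e-12) and by 0.38 in Combo (SE 0.03, adjusted p = 2.56e-15), without overlap but within the fold-change limit.

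*Cxcr4*, the receptor of CXCL12, was called in no comparison of 2 groups in either tissue. In BM it was highest in WT, at 20773 to 21894 normalized counts, against 12192 to 12525 in Vehicle, 15435 to 15808 with the GLP-1R agonist, 15168 to 15771 with the antibody and 11622 to 11948 in Combo. WT was above the other groups without overlap, and Vehicle and Combo lay 0.80 and 0.87 log2 units below it (SE 0.02 each), differences beyond the replicate spread (adjusted p = 1.88e-28 and 1.65e-29) but within the fold-change limit. In ATMs it ranged from 1794 to 2987 over all libraries, and Vehicle differed from WT by 0.27 log2 units with a 95% interval of 0.03 to 0.51 and an adjusted p of 0.0717. The treated groups stood above WT without overlap, by 0.44 log2 units with the GLP-1R agonist (adjusted p = 0.0104), 0.40 with the antibody (adjusted p = 0.0179) and 0.40 in Combo (adjusted p = 0.0157), again within the fold-change limit.

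**Figure D4:**
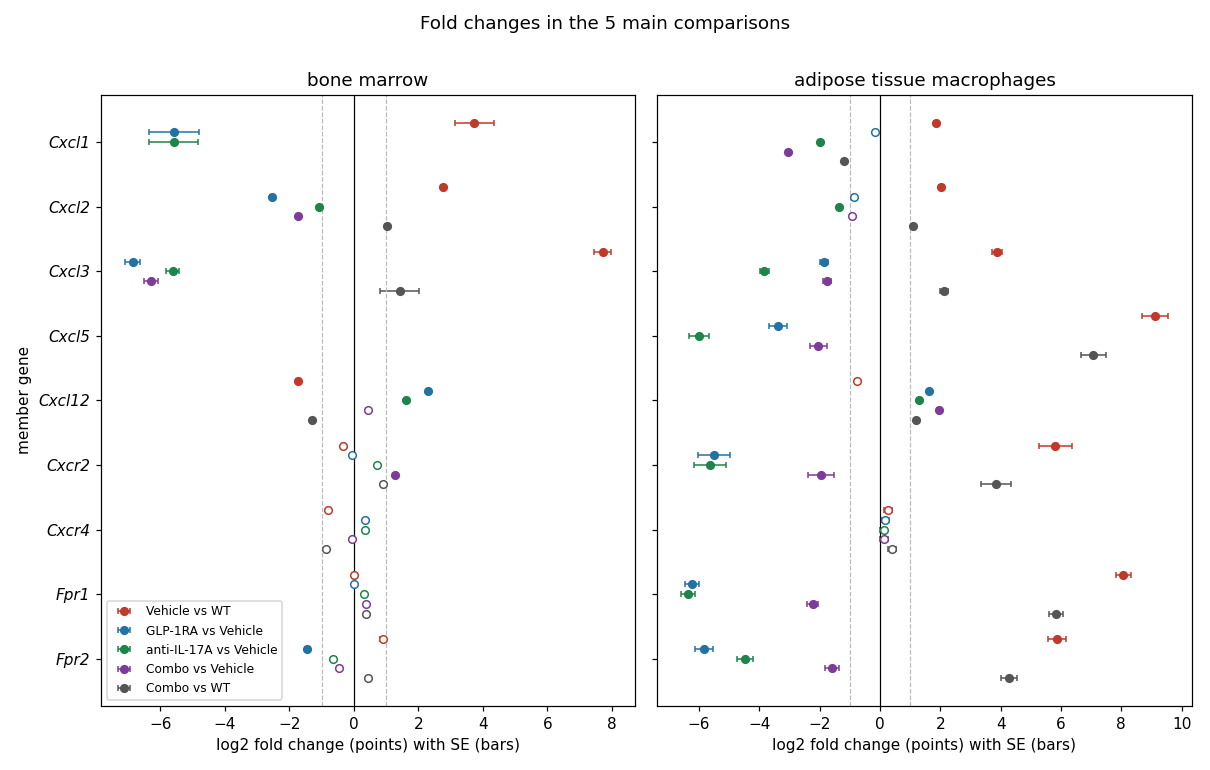
Log2 fold changes with SE of the members in the 5 main comparisons, in BM (left) and ATMs (right), with filled points for called differences, open points for others and dashed lines at -1 and 1. *Cxcl1* in BM is drawn without Combo, whose libraries held 0 counts, and *Cxcl5* was not analysed in BM.

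Counted over the members, each treatment gave calls against Vehicle in both directions. In ATMs, the GLP-1R agonist gave 6 calls among the 9 members, 1 up and 5 down, where 31.8% of all genes tested were called, 20.8% higher and 10.9% lower. With the antibody 8 were called, 1 higher and 7 lower (35.5% of genes, 22.4% higher and 13.1% lower), and in Combo 7, 1 higher and 6 lower (26.4%, 14.1% higher and 12.2% lower). The member called higher was *Cxcl12* each time. In BM, the GLP-1R agonist gave 5 calls among the 8 members, 1 up and 4 down (16.7% of genes, 7.6% higher and 9.08% lower), 4 with the antibody, 1 higher and 3 lower (16.1%, 7.65% and 8.46%), and 4 in Combo, 1 higher and 3 lower (17.7%, 6.58% and 11.1%). *Cxcl12* was the higher member with either single agent, and *Cxcr2* in Combo. These comparisons share the Vehicle libraries.

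Against WT, more members were called in ATMs of Combo mice than in ATMs of either single-agent group. Of the 9 members, 8 were called between Combo and WT, 7 higher and 1 lower (21.6% of genes, 7.08% higher and 14.5% lower). The GLP-1R agonist gave 5 against WT, all higher (15.1%, 7.7% higher and 7.42% lower), and the antibody 3, all higher (18.7%, 9.65% and 9.04%). In BM, 2 were called between the antibody and WT, both higher (6.32% of genes, 2.3% higher and 4.02% lower), *Cxcl2* at 1.69 log2 units (SE 0.05) and *Cxcl3* at 7 to 19 counts against 1 to 5.

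Between treatments in ATMs, 5 members were called for Combo against the GLP-1R agonist, 4 higher and 1 lower (18.7% of genes, 5.38% higher and 13.4% lower). Combo against the antibody gave 6, 5 higher and 1 lower (14.2%, 3.73% and 10.5%), and the member that was lower in Combo was *Cxcl1* both times. The GLP-1R agonist against the antibody gave 4, 3 higher and 1 lower (8.1%, 4.88% and 3.22%), the lower one being *Fpr2*, whose call was lost when only these 2 groups were fitted (adjusted p = 0.051). In BM, Combo against the GLP-1R agonist gave *Cxcr2* higher and *Cxcl12* lower (13.2%, 4.59% and 8.57%), Combo against the antibody *Cxcl12* lower (5.67%, 1.04% and 4.63%), and the GLP-1R agonist against the antibody *Cxcl2* and *Cxcl3* lower (5.83%, 2.43% and 3.41%). The *Cxcl3* call between the single agents was lost without GLP-1R agonist replicate 2 (adjusted p = 0.115) or antibody replicate 1 (0.143), while leaving out antibody replicate 2 raised the count for Combo against the antibody to 2.

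Without the fold-change limit, most members of BM passed the test, as most genes did. They numbered 7 of 8 in Vehicle vs WT (76.6% of genes), 6 with the GLP-1R agonist (72.8%), 8 with the antibody (73%) and 8 in Combo (73.8%) against Vehicle, and 8 in Combo (73.3%), 5 with the GLP-1R agonist (74.7%) and 7 with the antibody (66.3%) against WT. Between treatments they numbered 6 for Combo against the GLP-1R agonist (71.4%), 5 for Combo against the antibody (52.5%) and 6 for the GLP-1R agonist against the antibody (62.7%). In ATMs the count that grew most was that of the antibody against WT, to 6 of 9 (38.3%).

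The effect of Combo was also set against the sum of the single-agent effects on the log2 scale. This contrast sets Vehicle and Combo, the groups with high *Xist*, against both single-agent groups. The part of sex in a departure therefore cannot be told apart from that of the drugs. In ATMs, 6 of 9 members departed from the sum, all 6 with a smaller decrease than the sum (35.9% of genes departed, 12.9% in the positive and 23% in the negative direction). For *Cxcr2* the single-agent effects of -5.49 and -5.64 summed to -11.1 while Combo gave -1.96, a departure of 9.17 (SE 0.72, adjusted p = 2.96e-08). For *Fpr1* the sum was -12.6 and Combo gave -2.23, and for *Fpr2* they were -10.3 and -1.59. Applied to the Vehicle mean, these sums give 2.10, 1.73 and 1.91 normalized counts, under the floor of 3 counts per library (2.72), so the sign of these 3 departures was fixed by the floor and their size cannot be read. The count of 6 includes these 3 and is therefore not to be read against the share of all genes. The Combo means of 1210, 2262 and 812 can be set directly against the single agents, as above. The sums of *Cxcl2*, *Cxcl3* and *Cxcl5* give 5838, 50.1 and 14.5 normalized counts, and their Combo means were 14354, 762 and 2328. These sums lie under the WT means of 6771, 176 and 16.8, and whether treatment could lower these genes that far was not tested. *Cxcl1* departed by -0.91 (SE 0.08) and *Cxcl12* by -0.96 (SE 0.08), both within the fold-change limit.

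In BM, 4 of 8 members departed from the sum (21.1% of genes, 9.59% in the positive and 11.5% in the negative direction), with *Cxcl2* at 1.88 (SE 0.07) and *Fpr2* at 1.63 (SE 0.11) in the positive direction, *Cxcl12* at -3.47 (SE 0.06), and *Cxcl3* as the fourth. The *Cxcl3* sum gives 0.111 normalized counts, under the floor of 3.13, so its departure was fixed by the floor and is not usable. The *Cxcl12* effects of the single agents were 2.28 and 1.63, and Combo gave 0.44, less than either agent alone. *Cxcl1* likewise gives no usable departure in BM, where its treated libraries held 0 to 2 counts.

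**Figure D5:**
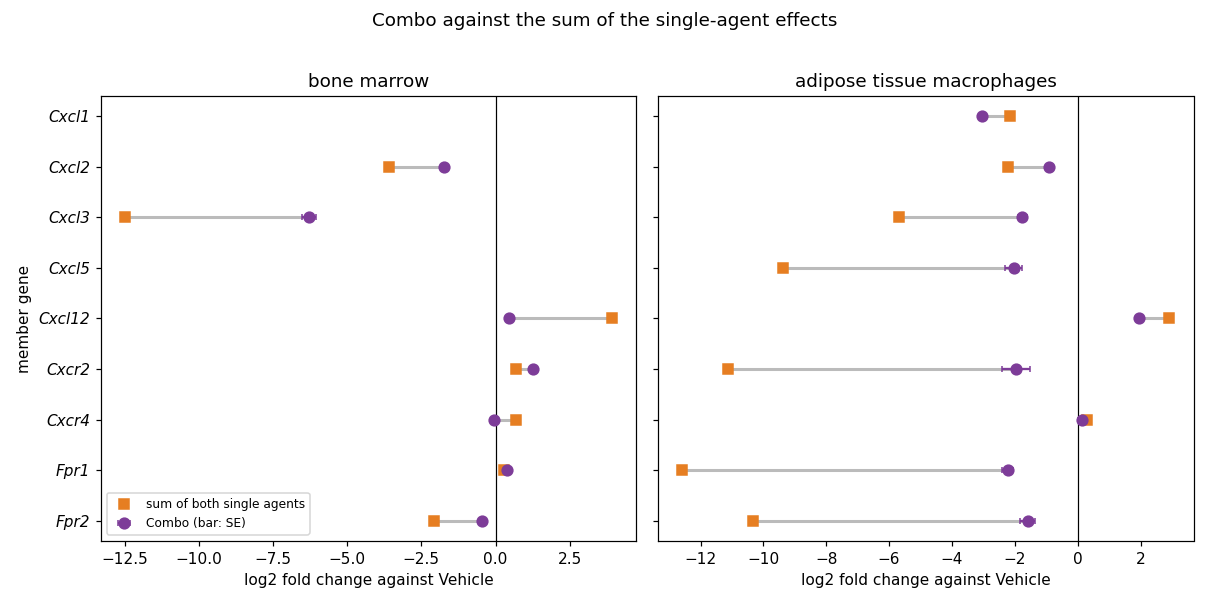
Log2 fold change against Vehicle in Combo (circles, bars are SE) and the sum of both single-agent log2 fold changes (squares) for each member, in BM (left) and ATMs (right). Squares lie far left of the circles for *Cxcr2*, *Fpr1*, *Fpr2* and *Cxcl5* in ATMs, those of the 3 receptors and of *Cxcl3* in BM standing for levels under the floor of 3 counts, and for *Cxcl12* in BM the sum of 3.91 lies right of the Combo value of 0.44. *Cxcl1* in BM is left out because its Combo libraries held 0 counts.

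The effects differed between the tissues for most members. In 1 fit of all 30 libraries, 6 of 8 members differed between ATMs and BM in Vehicle vs WT, where 28.7% of genes did, and 6 of 8 in Combo vs Vehicle, where 28.1% did. *Fpr1* showed the largest difference in Vehicle vs WT, 8.06 log2 units more in ATMs (SE 0.21, adjusted p = 1.1e-21), and *Cxcr2* and *Fpr2* followed at 6.18 and 4.97. *Cxcl3* went the other way, with 3.83 log2 units less in ATMs (SE 0.42, adjusted p = 1.68e-08).

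Levels per kilobase of exon placed the members differently in the 2 tissues. In Vehicle ATMs, mean normalized counts per kilobase were highest for *Cxcl1* (31257), *Cxcl2* (13191), *Fpr1* (8004) and *Cxcl5* (5149), followed by *Fpr2* (1891), *Cxcr2* (1545), *Cxcr4* (1400), *Cxcl3* (738) and *Cxcl12* (702). In Vehicle BM the receptors led, with *Fpr2* at 13601, *Cxcr4* at 6806, *Fpr1* at 4133 and *Cxcr2* at 3735 per kilobase, above *Cxcl2* at 1593, *Cxcl3* at 182, *Cxcl12* at 101 and *Cxcl1* at 19.1. The order of BM was thus receptors before ligands, and the order of ATMs put 2 ligands first. The tables were normalized separately, so these levels are to be read within a tissue.

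Genes of IL-17A, TNF and NF-κB signaling, the signals known to raise the ELR+ chemokines, were also mostly higher in Vehicle ATMs. The list holds inhibitors and products of these signals besides the signals themselves. Of 23 such genes, 15 rose and 0 fell against WT, where 12.5% of all genes rose and 22.9% fell, with a median log2 fold change of 1.28 against -0.21 over all genes. The largest increases were those of *Lcn2*, a neutrophil and epithelial siderophore-binding protein that is also among the neutrophil markers used here (1377 to 128320 normalized counts, log2 fold change 6.54, SE 0.09), and *Tnf* (1729 to 20553, log2 fold change 3.57, SE 0.11). Whether these genes had a part in the chemokine values was not tested. Neutrophil and endothelial markers were also higher in Vehicle ATMs than in WT, and their part in the values of these genes was not tested. Against Vehicle, 10 of the 23 fell with the GLP-1R agonist, 17 with the antibody and 13 in Combo, where 10.9%, 13.1% and 12.2% of all genes fell, and 0 rose in any of the 3. *Il6*, a cytokine induced by IL-17A, fell from 18427 to 1121 normalized counts in Combo (log2 fold change -4.04, SE 0.09), and *Csf3*, the granulocyte growth factor G-CSF, from 6452 to 456 (-3.82, SE 0.14). In BM, 8 of 20 rose and 2 fell between Vehicle and WT (9.44% and 10% of all genes), among them *Il6* (3.23, SE 0.20) and the NF-κB inhibitor gene *Nfkbia* (2.07, SE 0.03) higher and *Il1b* (-3.17, SE 0.04) and *Cebpd* (-1.11, SE 0.04) lower, and 10, 6 and 6 fell with the GLP-1R agonist, the antibody and Combo (9.08%, 8.46% and 11.1% of all genes) while 1, 3 and 2 rose (7.6%, 7.65% and 6.58%). The changes in BM of Combo included increases of *Cebpd* (1.35, SE 0.03) and *Il1b* (1.20, SE 0.05) and decreases of *Il6* (-3.99, SE 0.22) and *Tnfaip3*, which encodes an NF-κB inhibitor (-2.28, SE 0.05).

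Other attractant and decoy receptor genes moved in both directions. In ATMs, 11 of 21 rose and 2 fell in Vehicle against WT (12.5% and 22.9% of all genes, median log2 fold change of the list 1.5), led by *Ackr1*, the atypical receptor that binds chemokines on venules (2.89, SE 0.11), and *Ccr1* (2.76, SE 0.06), with *Ltc4s*, a leukotriene synthase, at -3.13 (SE 0.23) and the platelet chemokine *Pf4* at -2.22 (SE 0.08). Endothelial markers summed to 7824 to 8228 CPM in Vehicle ATMs and 1962 to 2242 in the other groups, and their part in the *Ackr1* value was not tested. In Combo 4 rose and 5 fell against Vehicle (14.1% and 12.2% of all genes), with *Pf4* at 2.48 (SE 0.08) and *Ltc4s* at 2.30 (SE 0.22) higher and *Ackr1* at -4.76 (SE 0.12) and the scavenging receptor *Ackr3* at -2.37 (SE 0.09) lower. In BM, 5 of 19 rose and 6 fell in Vehicle against WT (9.44% and 10% of all genes), with the anaphylatoxin receptor *C3ar1* at 3.92 (SE 0.12) and *Cxcl16* at 2.97 (SE 0.17) higher and *Cxcr1*, the second receptor for ELR+ chemokines, at -1.93 (SE 0.21) and the G-CSF receptor *Csf3r* at -1.65 (SE 0.03) lower. Against Vehicle, 4 rose and 5 fell in BM of Combo (6.58% and 11.1% of all genes), with *Cxcr1* at 3.14 (SE 0.19) and *Csf3r* at 1.34 (SE 0.03) higher and *C3ar1* at -4.47 (SE 0.13) and *Cxcl16* at -3.78 (SE 0.18) lower.

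Genes that act below these receptors include G protein regulators, arrestins and Rac activators. Of 25 such signaling genes in BM, 2 rose and 1 fell in Vehicle against WT, where 9.44% and 10% of all genes did, with the G protein regulator *Rgs1* at 3.18 (SE 0.08) and the arrestin *Arrb2* at 1.06 (SE 0.02) higher and *Rgs2* at -1.47 (SE 0.03) lower, and 1 rose (*Plcb2*, 1.07, SE 0.03) and 1 fell (*Rgs1*, -4.13, SE 0.09) in Combo against Vehicle (6.58% and 11.1% of all genes). In ATMs 6 of 25 rose and 1 fell in Vehicle against WT (12.5% and 22.9% of all genes), among them the Src family kinase *Fgr* (2.56, SE 0.18), with the Rac activator *Dock2* at -1.19 (SE 0.15). In Combo 9 rose and 1 fell against Vehicle (14.1% and 12.2% of all genes), with *Dock2* at 2.34 (SE 0.15), the actin regulator *Was* at 1.70 (SE 0.12) and the GTPase *Rac1* at -1.04 (SE 0.03).

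The CXCL12-CXCR4 retention genes and the adhesion genes had calls in both directions. Of 16 retention genes, 3 rose and 3 fell in BM of Vehicle against WT (9.44% and 10% of all genes), with the chemokine-like cytokine *Mif* at 1.57 (SE 0.05) and *Hif1a* at 1.22 (SE 0.04) higher and the stem cell factor gene *Kitl* at -1.51 (SE 0.20) lower. In ATMs 6 rose and 3 fell (12.5% and 22.9%), with the neutrophil collagenase *Mmp8* at 7.03 (SE 0.31), neutrophil elastase *Elane* at 2.42 (SE 0.28), *Dpp4*, whose product cleaves CXCL12, at -4.51 (SE 0.26) and *Cd74* at -2.31 (SE 0.04). Combo against Vehicle gave 4 higher and 4 lower in BM (6.58% and 11.1%), with *Mmp9* at 1.46 (SE 0.02), *Mmp8* at 1.06 (SE 0.02), *Cd74* at -2.15 (SE 0.03) and *Dpp4* at -1.72 (SE 0.07). In ATMs it gave 7 higher and 6 lower (14.1% and 12.2%), with *Elane* at 3.68 (SE 0.26), the granule protease *Ctsg* at 3.64 (SE 0.46), the stromal transcription factor *Foxc1* at -2.37 (SE 0.35) and *Ackr3*, which also binds CXCL12, at -2.37 (SE 0.09).

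Of 15 adhesion genes, 2 rose and 2 fell in BM of Vehicle against WT (9.44% and 10% of all genes), with the integrin ligand *Icam1* at 1.88 (SE 0.06), P-selectin *Selp* at 1.41 (SE 0.09) and *Icam2* at -1.24 (SE 0.07). In ATMs 7 rose and 2 fell (12.5% and 22.9%), with the neutrophil antigen *Cd177* at 4.19 (SE 0.21), the junction protein gene *Cxadr* at -2.35 (SE 0.33) and the integrin subunit *Itgal* at -1.47 (SE 0.19). In Combo against Vehicle, 3 rose and 2 fell in BM (6.58% and 11.1%), with *Cxadr* at 2.12 (SE 0.27), *Cd177* at 1.05 (SE 0.03) and *Icam1* at -2.40 (SE 0.06), and 4 rose and 6 fell in ATMs (14.1% and 12.2%), with *Itgal* at 2.71 (SE 0.20), *Itgam* at 2.05 (SE 0.07), *Selp* at -2.87 (SE 0.10) and *Icam1* at -1.99 (SE 0.05). *Mmp8*, *Mmp9*, *Cd177* and *Csf3r* are also among the neutrophil markers. The median log2 fold changes of the lists in Vehicle against WT were 0.23, 0.49, -0.13, -0.40 and -0.16 in BM, in the order attractants and decoy receptors, IL-17A and NF-κB, signaling, retention and adhesion, against -0.02 over all genes, and 1.5, 1.28, 0.40, 0.79 and 0.56 in ATMs.

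The genes whose log2 CPM followed a member most closely over the 15 libraries of a tissue are given as a description, since the 5 groups and any cell mixture are shared by all points. In BM, *Cxcl2* was followed by *Slc29a3* (Pearson's r = 0.97), *Xrn2* (0.96) and *Cebpb* (0.95), *Cxcr2* by *Adssl1*, *Ltf* and *Trp53inp2* (0.99 each), *Cxcr4* by *Hdac10*, *BC035044* and *Osgep* (0.98 each), and *Cxcl12* by *Cd36* (0.995), *Gas6* (0.99) and *Tmem64* (0.98). In ATMs, *Cxcl2* was followed by *Samsn1* (0.99), *Zfp36l2* (0.99) and *Hilpda* (0.98), *Cxcr2* by *Il1f9* (0.98), *Cd33* (0.97) and *Tmem40* (0.97), *Cxcr4* by *Lpar4* (0.90), *Wisp1* (0.86) and *Creg2* (0.86), and *Cxcl12* by *Cd6*, *Cxcr6* (0.98 each) and *Gimap3* (0.97). No gene was shared between the 2 tissues' lists for the same member.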

How the data were processed

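The authors aligned paired-end reads to GRCm38 (mm10) with STAR 2.7.2a and counted them on GENCODE M22 genes with featureCounts 2.0.1, ignoring strand, keeping alignments of mapping quality 10 or more and counting a read for every gene it overlapped. The deposited values are raw counts per gene, in 1 table per tissue, in which every gene totals at least 55 (BM) or 54 (ATMs). Groups came from the labels, which name 1 batch.

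The counts of all 15 libraries of a tissue were fitted together by edgeR 4.0.16 (R 4.3.3) with TMM scaling and the robust quasi-likelihood method, and filterByExpr removed 0 genes. Tests were 2-sided with Benjamini-Hochberg adjustment over all genes, and a call also needed a log2 fold change beyond 1 in size. A normalized count is the count over its effective library size, times the mean of these sizes in that tissue. The alternatives tried were DESeq2 1.42.0, DESeq2 size factors within edgeR, dropping the low-count filter, requiring 10 counts throughout, dropping the fold-change limit, fitting 2 groups only, blocking on the replicate number, and leaving out each library. The edgeR and DESeq2 steps were tested on simulated data. Promoters and starts are RefSeq's and exons GENCODE's, both for GRCm38.

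All members are named. Of the lists, genes named for Vehicle vs WT and Combo vs Vehicle are the 2 largest called increases and decreases whose mean over the 6 libraries compared reached 50 counts, apart from 2 that are not reported here. The 3 genes most like 4 members by Pearson's r of log2 CPM were taken from genes averaging 50 counts or more. *Xist* and *Ddx3y* were read as a check. Members and lists were chosen with earlier results of these data known. Replicates with the same number were checked for shared deviations.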

Additional observations from a re-analysis of the deposited data

Results flagged for a closer look

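Of the 8 members measured in both tissues, 6 had an effect of Vehicle vs WT that differed between ATMs and BM, tested as an interaction in 1 edgeR fit of 30 libraries over genes in both tables. The ATM effect minus the BM effect was 6.18 log2 units for *Cxcr2* (adjusted p = 5.08e-14), 8.06 for *Fpr1* (1.1e-21), 4.97 for *Fpr2* (5.78e-18) and 1.07 for *Cxcr4* (1.82e-08), and it was -3.83 for *Cxcl3* (1.68e-08) and -1.88 for *Cxcl1* (0.00617). The *Cxcr4* difference passed the fold-change limit narrowly and fell to 0.97 without ATM WT replicate 2 and 0.99 without ATM Vehicle replicate 3. *Cxcr4* itself was called in neither tissue (-0.80 in BM and 0.27 in ATMs).

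In Combo vs Vehicle, 6 members also differed between the tissues. The ATM effect minus the BM effect was -3.18 for *Cxcr2* (adjusted p = 6.36e-10), which rose in BM and fell in ATMs, -2.56 for *Fpr1* (1.8e-13) and -1.10 for *Fpr2* (2.76e-07). It was 4.57 for *Cxcl3* (1.13e-11), 5.08 for *Cxcl1* (0.00248), whose fitted value depends on 0 counts in BM of Combo, and 1.55 for *Cxcl12* (8.36e-16). The causes of these differences were not tested.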

How the results depend on the processing

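The counts of members called stayed within 1.5 times with DESeq2, with its size factors in edgeR and with the replicate block in all 24 comparisons. The low-count filter removed 0 genes, so dropping it repeats the same fit. At 10 counts in every library, which removed *Cxcl1* and *Cxcl3* from BM, the BM counts were 2 (Vehicle vs WT), 3 (GLP-1R agonist vs Vehicle), 2 (antibody vs Vehicle), 2 (Combo vs Vehicle), 2 (Combo vs WT), 1 (antibody vs WT) and 1 (GLP-1R agonist vs antibody). With no fold-change limit they were 7 (Vehicle vs WT), 8 (antibody vs Vehicle), 8 (Combo vs Vehicle), 8 (Combo vs WT), 5 (GLP-1R agonist vs WT), 7 (antibody vs WT), 6 (Combo vs GLP-1R agonist), 5 (Combo vs antibody) and 6 (GLP-1R agonist vs antibody) in BM and 6 (antibody vs WT) in ATMs. Fitting only the groups compared, which removed genes with few counts in them, gave 2 (Combo vs WT), 1 (antibody vs WT) and 1 (GLP-1R agonist vs antibody) in BM. Leaving out 1 library gave 2 to 3 for Combo vs WT, against 4, 1 to 2 for GLP-1R agonist vs antibody and 1 to 2 for Combo vs antibody in BM, 5 to 7 for the tissue difference in Vehicle vs WT, and no other count moved past 1.5 times.

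Signs turned only for values near 0 that were called in no setting. In Vehicle vs WT in BM, *Fpr1* had log2 fold changes from -0.01356 (without WT replicate 2) to 0.0344 when 1 library was left out, with -0.000395 without Vehicle replicate 2. In GLP-1R agonist vs Vehicle in BM it had 0.00423 at 10 counts in every library and -0.0225 to 0.00406 (without Vehicle replicate 2) when 1 library was left out. *Cxcr4* in ATMs had -0.00499 (without Vehicle replicate 1) to 0.217 in antibody vs Vehicle. The tissue difference of *Cxcl12* in Vehicle vs WT, 0.98, passed the limit at 1.015 with DESeq2 and with its size factors. In ATMs the *Cxcl5* log2 fold changes against WT without WT replicate 2 were 11.2 (Vehicle), 9.14 (Combo), 7.80 (GLP-1R agonist) and 5.20 (antibody), and 8.52, 6.47, 5.13 and 2.53 without WT replicate 3. In BM the *Cxcl1* log2 fold changes against Vehicle were -8.16 without replicate 2 of either single agent, when only 0 counts remained.

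Equal replicate numbers did not pair the libraries: correlations of same-numbered deviations were -0.07 to 0.147 in BM and -0.042 to 0.031 in ATMs, and with the replicate block the count was, for example, 4 for Vehicle vs WT in BM and 7 in ATMs, as without it. At 0 to 19 counts per library, *Cxcl1* and *Cxcl3* in WT and treated BM limit what can be compared.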
